A study of Mus musculus with 16 samples.

Results

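The response of lung endothelial cells (ECs) to bleomycin in 2-month-old mice was taken from 9 of the 16 libraries of the series. Members were chosen by their labels alone: 4 libraries from bleomycin-treated mice (Young Bleo 17, 18, 19 and 20) and 5 from sham-treated mice (Young Sham 21, 22, 23, 24 and 25). The remaining 7 libraries came from mice aged 18 months (3 Aged Sham and 4 Aged Bleo) and served for a shared estimate of spread and for 1 comparison of the ages. Bleomycin injures the lung when it is sprayed into the airways and leaves a fibrosis that young mice can resolve. Per the study's methods, sham mice received phosphate-buffered saline by the same route, and lungs were taken about a month later. All mice were of the FVB strain and, per the methods, carried a Col1α1-GFP transgene, which marks cells that make type I collagen, so that sham controls carried the reporter too. Cells were sorted as CD31 positive and as negative for CD45, EpCAM and GFP, which selects ECs and removes leukocytes, epithelium and collagen-producing cells. The labels do not say that each library came from a separate animal, but the study describes the RNA as taken from the lungs of its chromatin assay, in which each library was 1 mouse.

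The alveolar wall holds 2 kinds of capillary EC. Aerocytes are large thin cells that face the air space and serve gas exchange, and they are marked by Car4, Ednrb, Apln and Tbx2. General capillary cells, marked by Gpihbp1, Kit and Aplnr, are the ones that divide after injury and can give rise to aerocytes. Larger arteries, veins and lymphatics carry their own markers. In RNA from a sorted population, fewer cells of a type and less RNA per cell cannot be told apart, and this holds for every gene group described here.

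Total counts were 20.9 M to 52.7 M per library in Young Sham and 38.7 M to 53.4 M in Young Bleo. No pair of replicates had counts within sampling noise of each other, with a chi-square per degree of freedom of 32.8 to 141 among the Young Sham pairs and 48.0 to 223 among the Young Bleo pairs, so no library was treated as deposited more than once. This check does not tell separate mice from repeat preparations of 1 mouse. The methods name female and male mice, but all 9 libraries held the Y-linked transcript Ddx3y (1359 to 3389 normalized counts), and Xist, which is made from an inactive X chromosome, did not exceed 39.0. The endothelial markers Pecam1 and Cdh5 were abundant in all 9 libraries. The summed level of 15 pan-endothelial markers was 836891 to 950091 in Young Sham and 651930 to 779085 in Young Bleo. Their median log2 fold change was -0.06, with 7 of 15 above 0. Pecam1 lay at 121 ± 17.2 FPKM (SD, n = 5) in Young Sham and 111 ± 28.6 (SD, n = 4) in Young Bleo. Single libraries are listed in the order Young Sham 21 to 25 and Young Bleo 17 to 20, and values are normalized counts unless FPKM is named.

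A gene counted as higher or lower where its adjusted p in DESeq2 (Wald test, Benjamini-Hochberg) did not exceed 0.05 and its log2 fold change reached 0.5 in either direction. Of 18515 genes tested, DESeq2 called 13.9%, with 7.57% higher and 6.35% lower in Young Bleo, and edgeR called 9.78% of the 18324 genes it tested, with 5.69% higher and 4.09% lower. These shares are the background for every count of list members given below. The median log2 fold change over all genes tested was 0.01. At a log2 fold change of at least 3 there were 240 genes called higher, and at -3 or below there were 66 called lower.

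Before the gene groups, 1 library needs to be described on its own. Young Bleo 20 was the lowest of the 4 Young Bleo libraries in 890 of the 1402 genes called higher (63.5%) and the highest of the 4 in 882 of the 1176 genes called lower (75%). Its values thus lay nearest to the sham libraries in most called genes. Without it DESeq2 called 3339 genes in place of 2578, and leaving it out moved 21 of the 191 called genes named here by more than 1.5-fold, in each case away from 0. Those values are given beside the genes. List counts of 2 or fewer moved by up to 2 members when 1 library was left out, apart from the coagulation list. Larger moves are given beside the list for many lists, but not for all.

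**Figure D1:**
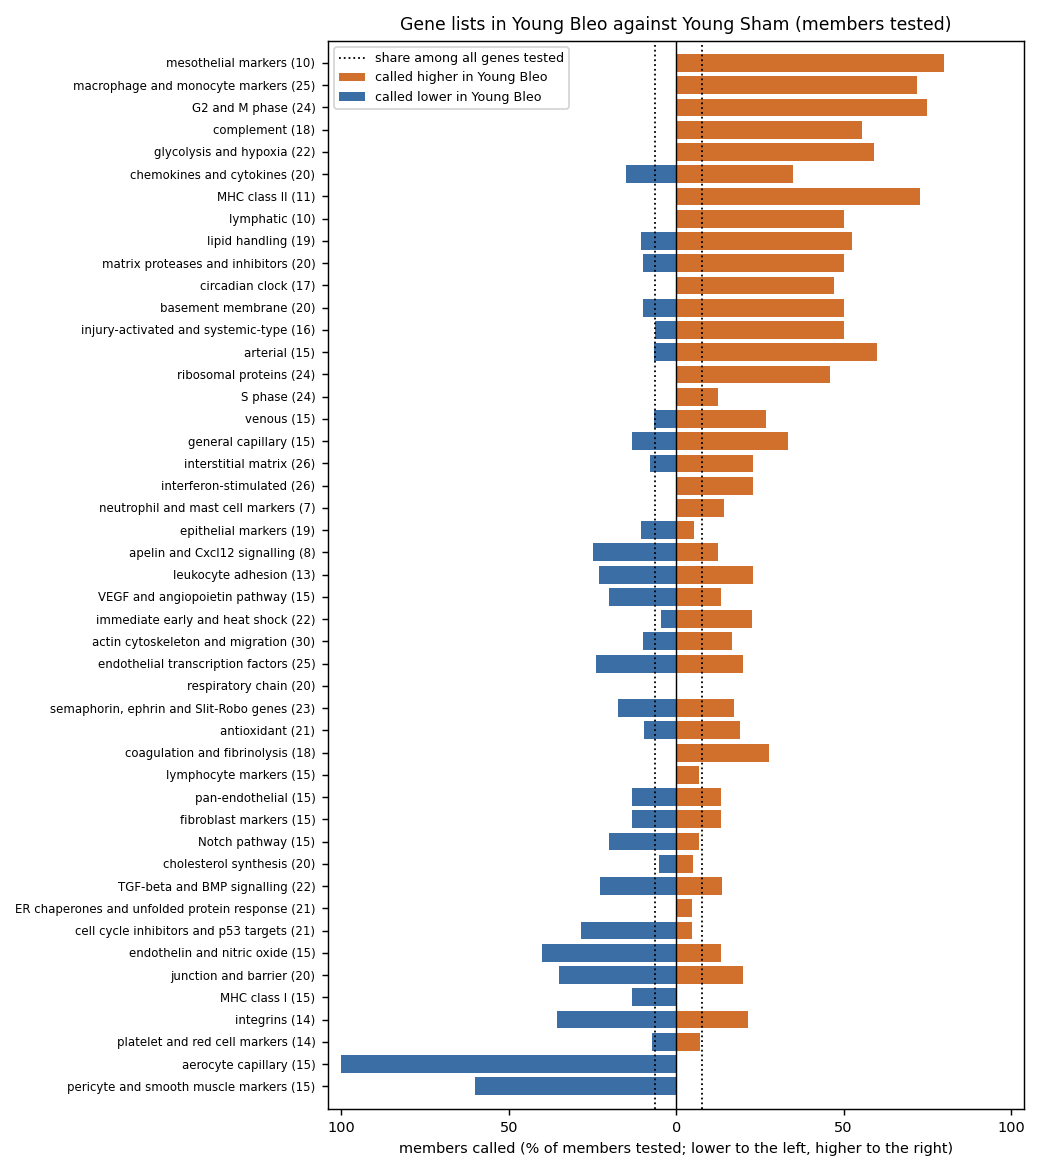
Share of each gene list called higher (orange, to the right) or lower (blue, to the left) in Young Bleo against Young Sham by DESeq2, with the number of members tested in parentheses, ordered by the median log2 fold change of the list. Dotted lines mark the shares among all genes tested, 7.57% higher and 6.35% lower. Markers of aerocytes were called lower in 15 of 15 members, while G2 and M phase genes were called higher in 18 of 24.

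Markers of other cell types changed in the same libraries. Of 25 macrophage and monocyte markers tested, 18 were called higher in Young Bleo, with a median log2 fold change of 3.55 and all 25 above 0. Both DESeq2 and edgeR called these 18, whereas limma voom called 4. The summed level of this list was 3928 to 6822 in Young Sham and 22018 to 80856 in Young Bleo, lowest in Young Bleo 20. Cd68, a lysosomal protein of macrophages, was at 128, 84.9, 53.3, 67.8 and 84.1 in Young Sham and 3203, 2801, 1569 and 586 in Young Bleo. Lyz2, which encodes lysozyme, was at 4799, 4398, 4702, 4403 and 2724 in Young Sham and 42317, 50201, 31881 and 16608 in Young Bleo. For both genes the groups did not overlap, and Young Bleo 20 was the lowest injured library. Gpnmb, a glycoprotein of lipid-laden macrophages, rose by 5.56 ± 0.73 (log2, SE; adjusted p = 4.15e-11), and the macrophage receptor Trem2 rose by 4.62 ± 0.75. Ptprc, the gene of the CD45 antigen used to remove leukocytes, was at 2.83, 54.4, 26.7, 10.5 and 0 in Young Sham and 68.4, 224, 105 and 107 in Young Bleo, a rise of 2.74 ± 0.78 that was not called without Young Bleo 18 (log2 fold change 2.31) and stood at 3.77 without Young Sham 22. In FPKM, which depends on the deposited gene length, Ptprc was at 0.0692 ± 0.0369 (SD, n = 4) in Young Bleo, Cd68 at 16.2 ± 9.41 and Pecam1 far above both. In counts, given above, Ptprc and Cd68 lay closer together. The alveolar macrophage markers Marco (1.36 ± 1.96) and Siglecf (0.80 ± 1.33) were not called and lay near 0 FPKM in both groups (0.119 ± 0.18 and 0.0511 ± 0.0591 FPKM, SD, n = 4, in Young Bleo).

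Mesothelial markers, of the cells that cover the lung surface, were called higher in 8 of 10 tested members, with a median log2 fold change of 3.68 and all 10 above 0. Their summed level was 141 to 623 in Young Sham and 1635 to 4527 in Young Bleo. Markers of pericytes and smooth muscle, the contractile cells around vessels, were called lower in 9 of 15, with 6 called by both tools and a median of -1.97. Their summed level was 17025 to 37882 in Young Sham and 5329 to 11447 in Young Bleo. Cox4i2, a pericyte marker, was at 1201, 1243, 619, 926 and 821 in Young Sham and 168, 95.7, 204 and 121 in Young Bleo, with no overlap. Rgs5, another pericyte marker, was not called (-0.01 ± 0.36). Lymphocyte markers were called higher in 1 of 15 members, with summed levels of 490 to 1466 in Young Sham and 865 to 1294 in Young Bleo. Fibroblast markers were called higher in 2 and lower in 2 of 15, and epithelial markers higher in 1 and lower in 2 of 19. Neutrophil and mast cell markers were called higher in 1 of 7 tested members, and platelet and red cell markers higher in 1 and lower in 1 of 14, with a median of -1.01. With the 9 young libraries fitted alone, 9 of these 14 were called lower and 0 higher, while edgeR called 0 in either direction. Whether these cells have a part in the changes of other gene groups was not tested.

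The aerocyte genes fell. All 15 members of the aerocyte list were called lower by DESeq2 and 13 of them also by edgeR, with a median log2 fold change of -1.90, against 6.35% called lower among all genes. Car4, a carbonic anhydrase on the cell surface, was at 258850, 221420, 194670, 327480 and 259250 in Young Sham and 29762, 39662, 64805 and 120810 in Young Bleo. Every injured library was below every sham library, and Young Bleo 20 was closest to the sham range. Car4 fell by 1.98 ± 0.45 (log2, SE; adjusted p = 0.000245). Ednrb, the endothelin B receptor, was at 44861, 56553, 49394, 50262 and 53062 in Young Sham and 3333, 3159, 3962 and 23573 in Young Bleo. It fell by 2.58 ± 0.69 (adjusted p = 0.00304), with -3.86 without Young Bleo 20, which held several times more than the other 3 injured libraries. Apln, which encodes the peptide apelin, was at 22887, 30308, 27293, 27394 and 27092 in Young Sham and 3756, 5712, 5208 and 14255 in Young Bleo and fell by 1.90 ± 0.34 (adjusted p = 1.86e-06). Cyp4b1, a cytochrome P450, was at 181130, 188060, 151690, 229600 and 199590 in Young Sham and 10435, 11154, 16244 and 69350 in Young Bleo and fell by 2.83 ± 0.71, with -3.91 without Young Bleo 20. Fibin, a secreted protein, was at 5077, 5148, 4833, 7096 and 5925 in Young Sham and 203, 209, 547 and 2390 in Young Bleo and fell by 2.75 ± 0.77, with -4.13 without Young Bleo 20. The libraries of both groups were apart for 14 of the 15 genes, against 14.8% of all genes tested.

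Receptors and transcription factors of these cells fell with them. Kdr, the main VEGF receptor of ECs, was at 89690, 134580, 114580, 90399 and 98036 in Young Sham and 19328, 23272, 22103 and 70375 in Young Bleo, and fell by 1.64 ± 0.40 (adjusted p = 0.000812). The transcription factor Tbx2 fell by 1.70 ± 0.47, and the related Tbx3, from the list of transcription factors, fell by 1.42 ± 0.40. Nrp1, a co-receptor for VEGF and semaphorins, fell by 1.33 ± 0.21, and Kitl, the ligand of the receptor Kit, fell by 1.58 ± 0.38. Pmp22, a membrane protein, was at 118250, 106110, 98333, 161710 and 130870 in Young Sham and 17903, 21492, 27049 and 56396 in Young Bleo, with no overlap. Rprml (-2.03 ± 0.43), Chst1 (-2.08 ± 0.48) and Sirpa (-1.45 ± 0.41) fell too. Without Young Bleo 20 the log2 fold changes were -2.29 for Kdr, -2.39 for Tbx2, -2.86 for Chst1 and -2.23 for Sirpa. The call was not stable for 2 members. Emp2 was at 152670, 179230, 161290, 169980 and 164820 in Young Sham and 16923, 21065, 30327 and 119290 in Young Bleo, and fell by 1.82 ± 0.59. It was not called by edgeR (adjusted p = 0.0812) or by DESeq2 without Young Bleo 17 (-1.54), 18 (-1.57) or 19 (-1.65), and without Young Bleo 20 it fell by 2.86. Prx, a scaffold protein, was at 35149, 56038, 56156, 21922 and 32213 in Young Sham and 8912, 9461, 8129 and 35360 in Young Bleo, where Young Bleo 20 lay within the sham range. It fell by 1.38 ± 0.51 but was not called by edgeR (adjusted p = 0.134) or without any 1 of 7 single libraries (-1.45 to -1.17), and its log2 fold change was -2.19 without Young Bleo 20. Without Young Bleo 20 the 15 members were again called lower, with a median of -2.46. The summed level of the list was 1077552 to 1321477 in Young Sham, and 160138, 194344, 239425 and 650018 in the 4 Young Bleo libraries, so the injured libraries had the reverse order of the macrophage markers.

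**Figure D2:**
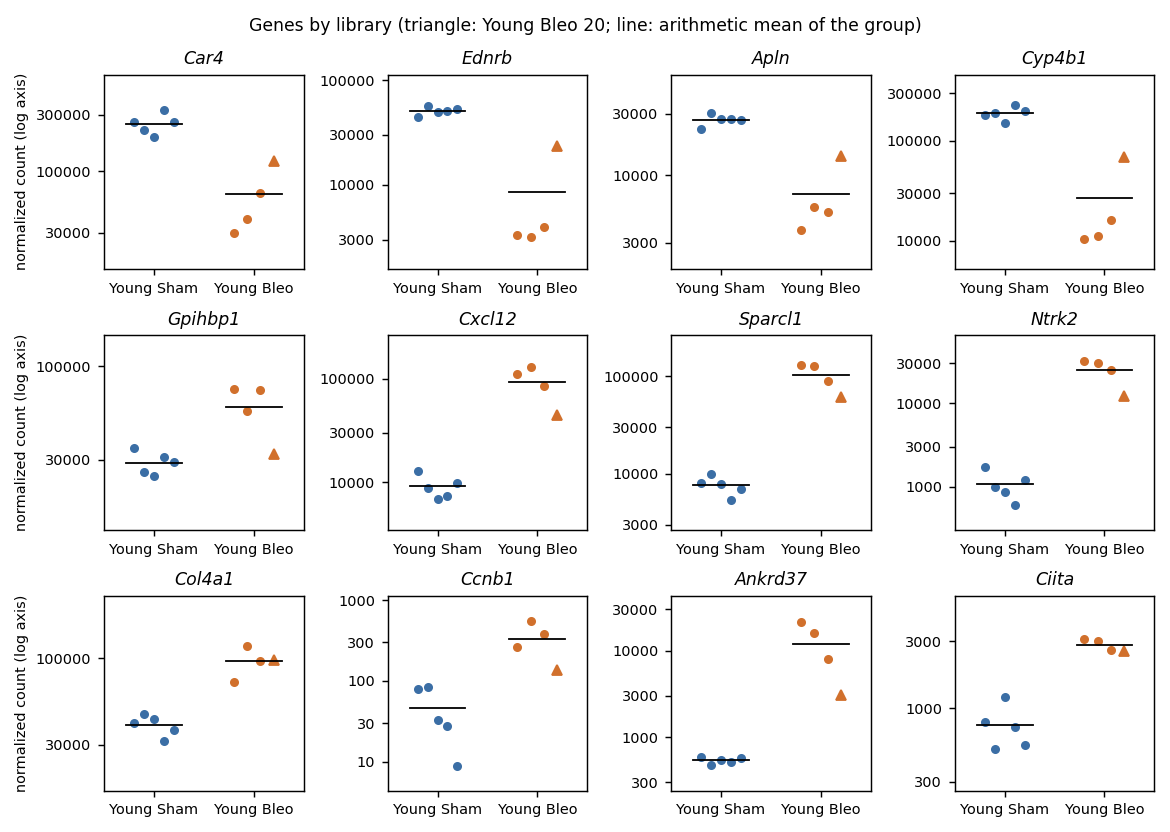
Normalized counts of 12 genes in the 5 Young Sham (blue) and 4 Young Bleo (orange) libraries on log axes, with arithmetic group means as lines and Young Bleo 20 as a triangle. For the 4 aerocyte genes of the top row the triangle is the highest injured library, and for Cxcl12, Sparcl1, Ntrk2, Ccnb1 and Ankrd37 it is the lowest.

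General capillary markers were mixed. Of 15 members, 5 were called higher and 2 lower by both tools, with a median log2 fold change of 0.41. Cxcl12, a chemokine that binds the receptors Cxcr4 and Ackr3, was at 12721, 8730, 6898, 7363 and 9779 in Young Sham and 110410, 131570, 84899 and 44555 in Young Bleo. It rose by 3.35 ± 0.50 (adjusted p = 7.54e-09) with no overlap. Gpihbp1, which holds lipoprotein lipase on the capillary wall, was at 34806, 25579, 24428, 31164 and 29161 in Young Sham and 74397, 56364, 74203 and 32375 in Young Bleo. It rose by 1.03 ± 0.29 (adjusted p = 0.00551), but Young Bleo 20 lay within the sham range. Lpl itself rose by 2.81 ± 0.64 and the matrix protein gene Vwa1 by 2.30 ± 0.42. Kit (-0.09 ± 0.22) and Aplnr (0.41 ± 0.25), which mark these cells as Gpihbp1 does, were not called, nor was Plvap (-0.06 ± 0.18). The adhesion receptor Lphn3 fell by 1.41 ± 0.35. Cxcr4 (0.18 ± 0.33) and Ackr3 (0.48 ± 0.28) were not called while their ligand rose.

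Genes of larger vessels rose more often than they fell. Of 15 arterial markers, 9 were called higher, 7 of them by both tools, and 1 lower, with a median of 0.82. Sox17, a transcription factor of arterial ECs, was at 10140, 7823, 8802, 6588 and 8782 in Young Sham and 49835, 47927, 36225 and 23359 in Young Bleo and rose by 2.22 ± 0.36 (adjusted p = 1.28e-07). The gap junction genes Gja4 and Gja5 rose by 1.47 ± 0.32 and 1.18 ± 0.29, and the kinase gene Bmx by 1.08 ± 0.18. Fbln5, an elastic fibre protein, rose by 1.50 ± 0.33. Dll4, a Notch ligand of arteries and tip cells, went the other way, at 11893, 12677, 10601, 9280 and 10761 in Young Sham and 6546, 4434, 4145 and 8456 in Young Bleo (log2 fold change -0.91 ± 0.23, adjusted p = 0.00174). Of 10 lymphatic markers, 5 were called higher, and without Young Bleo 17 the count was 3. Ccl21a, a chemokine of lymphatic vessels with near-identical gene copies, was at 22742, 22828, 19298, 22164 and 28871 in Young Sham and 126020, 55924, 100570 and 55494 in Young Bleo, and Pdpn rose by 1.82 ± 0.35. Mesothelial cells also express Pdpn, and their markers rose in the same libraries. Of 15 venous markers, 4 were called higher, 2 by both tools, and 1 lower, and the higher count was 2 without Young Bleo 20 or Young Sham 24.

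The genes of injury-activated and systemic-type ECs held several of the largest rises among abundant transcripts. Of 16 members, 8 were called higher by both tools and 1, Apln, lower, with a median of 0.92. Ntrk2, a neurotrophin receptor (chr13:58806596-59133970, mm10), was at 1738, 999, 857, 611 and 1210 in Young Sham and 32497, 30575, 25073 and 12230 in Young Bleo, a rise of 4.53 ± 0.73 (adjusted p = 8.96e-08). Sparcl1, a secreted matrix protein, was at 7956, 9837, 7947, 5335 and 7000 in Young Sham and 130100, 127950, 89403 and 61395 in Young Bleo, a rise of 3.75 ± 0.51 (adjusted p = 2.31e-10). Both genes rose in every injured library, and Young Bleo 20 was the lowest. Ackr1, an atypical chemokine receptor of venules, was at 133, 42.8, 100.5, 194 and 87 in Young Sham and 1516, 1071, 1520 and 1457 in Young Bleo, where Young Bleo 20 did not stand apart. It rose by 3.64 ± 0.48 (adjusted p = 4.15e-11). Col15a1, a collagen of systemic vessels, rose by 2.20 ± 0.47 and the actin-bundling gene Fscn1 by 1.78 ± 0.24. Spp1, which encodes osteopontin, rose by 4.21 ± 0.75 and is also a product of macrophages, whose markers rose in the same libraries. Angpt2 (-0.61 ± 0.29), Esm1 (0.62 ± 0.36) and Pdgfb (0.15 ± 0.25), which mark sprouting tip cells, were not called.

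Further genes were named for the size of their change and their abundance. Lrg1, a secreted glycoprotein that modifies TGF-beta signalling in ECs (chr17:56119680-56121946), was at 4926, 4348, 5091, 3535 and 5015 in Young Sham and 72077, 87539, 61186 and 24894 in Young Bleo, a rise of 3.74 ± 0.50 (adjusted p = 4.43e-11). Amd1, an enzyme of polyamine synthesis, rose by 3.89 ± 0.59 and the kinase gene Tnk1 by 3.99 ± 0.74, or by 3.39 without Young Bleo 17. Rgcc, a regulator of the cell cycle (chr14:79288756-79301645), was at 2198, 1499, 1439, 1517 and 1952 in Young Sham and 14596, 33066, 32643 and 12141 in Young Bleo and rose by 3.75 ± 0.47. Of less abundant genes, Clrn1 and Ucn had 0 counts in all 5 Young Sham libraries. Clrn1 was at 211, 189, 179 and 18.5 in Young Bleo, at least 41.7-fold higher against a floor of 3 counts per library, and Ucn, the peptide hormone urocortin, was at 124, 175, 217 and 36.3, at least 38.6-fold higher. Among abundant genes that fell, Slc16a9, a monocarboxylate transporter, was at 16031, 15807, 18025, 16806 and 16194 in Young Sham and 759.8, 919, 1066 and 5650 in Young Bleo (log2 fold change -2.98 ± 0.71). Dpysl5 (-3.04 ± 0.83), the cannabinoid receptor gene Cnr2 (-2.88 ± 0.76) and the matrix protein gene Egflam (-2.88 ± 0.69) fell as well. Without Young Bleo 20 the values were -4.18 for Slc16a9, -4.73 for Dpysl5, -4.19 for Cnr2 and -3.86 for Egflam. A block of protocadherin alpha genes (Pcdha5, Pcdha8 and Pcdha9 among them) fell with near-identical counts, for Pcdha5 by a log2 fold change of -2.77 ± 0.49, or -3.74 without Young Bleo 20. These genes overlap and share their constant exons, so they were read as 1 locus and not as separate genes.

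Among the 12 lowest log2 fold changes of genes called by both tools, with a mean count of at least 50 and no overlap, were Agtr1a, S1pr3 and Adora1, which are described together after their values were seen. Agtr1a, the angiotensin II receptor (chr13:30336441-30382867), was at 367, 327, 115, 144 and 294 in Young Sham and 1.73, 27, 13.2 and 30.1 in Young Bleo. S1pr3, a sphingosine 1-phosphate receptor, was at 916, 2505, 697, 806 and 775 in Young Sham and 19.1, 63.4, 179.6 and 236 in Young Bleo. The adenosine receptor gene Adora1 was at 111, 139, 111, 31.6 and 111 in Young Sham and 10.4, 1.04, 0 and 0 in Young Bleo. As the choice required, none of the 3 genes overlapped between the groups, and their log2 fold changes were -3.79 ± 0.59, -3.19 ± 0.78 and -5.12 ± 1.02. Without Young Bleo 17, which held most of the remaining Adora1 counts, the fitted value of that gene was -8.20. Agtr1a and S1pr3 are also expressed by pericytes and smooth muscle, whose markers fell in the same libraries. Of 15 genes of endothelin and nitric oxide signalling, 2 were called higher and 6 lower, 5 by both tools. The ligand Edn1 was at 5348, 4432, 4093, 4077 and 4172 in Young Sham and 15130, 14552, 14574 and 7616 in Young Bleo and rose by 1.55 ± 0.37 (adjusted p = 0.000628). Nos3, the endothelial nitric oxide synthase (chr5:24364810-24384474), was at 2356, 2654, 3264, 1920 and 3022 in Young Sham and 8780, 8255, 7395 and 6929 in Young Bleo and rose by 1.57 ± 0.22 (adjusted p = 3.8e-10). Other members fell. Beside Ednrb, the soluble guanylate cyclase genes Gucy1a3 and Gucy1b3, which bind nitric oxide and are pericyte genes in lung, fell (-2.88 ± 0.51 and -2.19 ± 0.50). The caveolar genes Sdpr (-1.14 ± 0.33) and Cav2 (-0.65 ± 0.13) fell, whereas Cav1 (0.09 ± 0.13) was not called.

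Of 25 endothelial transcription factors, 5 were called higher and 6 lower by both tools. Pparg, a nuclear receptor for lipids, was at 205, 176, 187, 195 and 206 in Young Sham and 1703, 1727, 1735 and 974 in Young Bleo and rose by 2.98 ± 0.51 (adjusted p = 6.39e-07). It was nearly level among 3 injured libraries and lower in Young Bleo 20. Gata6 rose by 1.35 ± 0.28. Foxf1, a factor of lung capillaries (chr8:121084386-121088144), was at 60667, 74109, 76084, 66758 and 74325 in Young Sham and 20552, 27480, 21788 and 44529 in Young Bleo and fell by 1.30 ± 0.29 (adjusted p = 0.00017). Klf7 (-1.13 ± 0.17), Gata2 (-0.92 ± 0.22) and Klf2 (-0.78 ± 0.22), a factor induced by laminar flow, fell too. Erg, an ETS factor that keeps ECs in their identity (chr16:95359169-95586593), rose by 0.69 ± 0.15 (adjusted p = 0.000108), from 1134, 1162, 1614, 938 and 1216 in Young Sham to 1998, 1768, 2203 and 1855 in Young Bleo. Its relatives Fli1 (0.17 ± 0.20), Ets1 (0.37 ± 0.16) and Ets2 (-0.25 ± 0.18) were not called, nor were Sox7 (0.18 ± 0.17) and Sox18 (-0.06 ± 0.15). The ETS-type motif CCGGAA, searched on either strand, occurred in 13.9% of the RefSeq promoters (GRCm38.p6, 250 bases before to 50 after each start) of genes called higher and in 17.4% of those of genes called lower, against 24.2% for genes tested and 14.9% of all promoters.

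Signalling pathways of vessel growth changed in single members. In the VEGF and angiopoietin list, 2 of 15 genes were called higher and 3 lower. Nrp2, a co-receptor of VEGF-C, was at 595, 967, 959.6, 560.3 and 733 in Young Sham and 2941, 3323, 2770 and 2759 in Young Bleo (rise of 1.95 ± 0.27, adjusted p = 2.41e-10), the reverse of its relative Nrp1. Angpt1, the ligand of Tek that pericytes make, was at 645, 793, 962, 685 and 572 in Young Sham and 149, 102, 70.5 and 302 in Young Bleo. It fell by 2.23 ± 0.55, together with the pericyte markers. The receptors Flt1 (0.18 ± 0.15), Flt4 (0.22 ± 0.25), Tek (0.10 ± 0.19) and Tie1 (0.16 ± 0.19) and the ligand Vegfa (0.40 ± 0.23) were not called. In the Notch list, 1 of 15 genes was called higher (Jag2, 0.96 ± 0.27) and 3 lower, among them the feedback regulator Nrarp (-0.72 ± 0.20), while the receptors Notch1 (-0.20 ± 0.12) and Notch4 (0.09 ± 0.13) were not called. In the TGF-beta and BMP list, 3 of 22 genes were called higher and 5 lower. Tgfb2 rose by 1.65 ± 0.28 and Id2, a target of BMP signals, by 1.32 ± 0.32. The BMP receptors Bmpr2 (-1.01 ± 0.21) and Acvrl1 (-0.86 ± 0.19) and the inhibitor Smad6 (-1.12 ± 0.28) fell, all with no overlap between the groups. Of 23 genes of semaphorins, ephrins and Slit-Robo signals, 4 were called higher and 4 lower, including Ntn1 (0.96 ± 0.24), Epha2 (-1.07 ± 0.23) and Sema6a (-1.08 ± 0.27). The higher count was 2 in edgeR and without Young Bleo 17, 18 or 19 or Young Sham 23 or 24.

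Junction genes were called lower in 7 and higher in 4 of 20 members. Cldn5, the main tight junction protein of ECs, was at 216880, 199940, 200850, 260950 and 222350 in Young Sham and 99905, 101490, 126890 and 136920 in Young Bleo and fell by 0.92 ± 0.17 (adjusted p = 4.3e-06). Ocln (-1.36 ± 0.28) and the barrier receptors S1pr1 (-0.70 ± 0.14) and Ramp2 (-0.76 ± 0.20) fell too. Jam2, a junctional adhesion protein, was at 4126, 4604, 4894, 3622 and 5122 in Young Sham and 21416, 18752, 19338 and 14648 in Young Bleo and rose by 2.05 ± 0.34 (adjusted p = 1.81e-07). Ctnnb1, which encodes beta-catenin, rose by 0.76 ± 0.16, and Cdh5 (-0.41 ± 0.11) was under the fold threshold of the call. Among 14 integrins, 3 were called higher and 5 lower, of which edgeR called 2 lower, and the lower count was 2 without Young Bleo 17, 18 or 19 and 3 without Young Sham 22 or 23. Itga3 was at 29265, 34546, 26786, 28844 and 31465 in Young Sham and 5390, 5905, 6922 and 17817 in Young Bleo (log2 fold change -1.74 ± 0.40), and Itga5, the fibronectin receptor subunit, rose by 0.94 ± 0.23. Of 30 genes of actin and migration, 5 were called higher and 3 lower, with Cdh13 (1.11 ± 0.23), Rnd1 (0.71 ± 0.15) and Nov (1.58 ± 0.39) among the former and Vcl (-1.34 ± 0.28) among the latter.

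Of 20 basement membrane genes, 10 were called higher, 9 by both tools, and 2 lower, with a median of 0.93 and 14 of 20 above 0. Hspg2, which encodes perlecan, was at 441, 756, 912, 317 and 777 in Young Sham and 3026, 4403, 3313 and 2290 in Young Bleo and rose by 2.35 ± 0.46 (adjusted p = 2.22e-05). Col4a2 was at 33715, 33688, 30022, 29775 and 30771 in Young Sham and 60800, 87335, 85168 and 63607 in Young Bleo, a rise of 1.23 ± 0.29. Lama4 and Lama5, the endothelial laminin alpha chains, rose by 1.47 ± 0.29 and 1.28 ± 0.28, Col18a1 by 1.58 ± 0.29 and Agrn by 0.89 ± 0.25. Lamb2 (0.00 ± 0.23) and Lamc1 (-0.22 ± 0.19) were not called, and Nid1 fell by 0.58 ± 0.14. In the interstitial matrix, 6 of 26 genes were called higher and 2 lower. Fn1, fibronectin, was at 516, 443, 549.5, 347 and 445 in Young Sham and 2607, 2799, 3075 and 2342 in Young Bleo, level among the injured libraries, and rose by 2.56 ± 0.32 (adjusted p = 3.87e-12). Fbn1 rose by 1.30 ± 0.36 and Fbln2 by 1.17 ± 0.31. The fibrillar collagen genes Col1a1 (0.37 ± 0.39), Col1a2 (-0.17 ± 0.33) and Col3a1 (-0.33 ± 0.37) were not called, and the sort removed cells with an active Col1α1 reporter. Postn (-2.17 ± 0.35) and Col6a3 (-1.74 ± 0.32) fell.

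Matrix proteases and their inhibitors were called higher in 10 of 20 and lower in 2. Adamts1, which cleaves proteoglycans, was at 4187, 4188, 6069, 3533 and 5042 in Young Sham and 22940, 23195, 17470 and 17808 in Young Bleo and rose by 2.14 ± 0.42 (adjusted p = 1.65e-05). Adam15 rose by 1.60 ± 0.30, Mmp14, a membrane-bound collagenase, by 1.20 ± 0.32, Mmp2 by 0.99 ± 0.26 and Mmp19 by 1.03 ± 0.25. Plat, tissue plasminogen activator, rose by 1.52 ± 0.31. The inhibitor Timp1 was at 101, 129, 131, 165 and 106 in Young Sham and 793, 792, 881 and 298 in Young Bleo (rise of 2.45 ± 0.55), whereas Timp2 was at 63515, 70568, 61229, 56855 and 66063 and 24970, 21998, 21691 and 48642 (log2 fold change -1.12 ± 0.31). Timp3 (0.33 ± 0.20) was not called. Mmp12, a macrophage elastase, was detected in the 4 Young Bleo libraries at 13165, 1732, 1264 and 139.9 and in 1 of 5 Young Sham libraries at 6.15. Of 18 coagulation genes, 5 were called higher, among them Procr (0.96 ± 0.20), the protein C receptor, and Anxa2 (1.36 ± 0.30). Without Young Bleo 19 the count was 3, and without Young Bleo 20 it was 5 higher and 5 lower.

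Genes of mitosis rose. Of 24 genes of G2 and M phase, 18 were called higher, 17 by both tools, against 7.57% of all genes, with a median log2 fold change of 1.74 and all 24 above 0. Without Young Bleo 20 the count was 18 again, with a median of 1.90. Without Young Bleo 18 it was 15, with a median of 1.40, and limma voom called 13. Ccnb2, a mitotic cyclin (chr9:70407689-70421554), was at 138, 75, 123, 73.7 and 77.2 in Young Sham and 659, 957, 593 and 274 in Young Bleo. It rose by 2.68 ± 0.42 (adjusted p = 5.38e-08). Cdc20, an activator of the anaphase-promoting complex, was at 309.7, 287, 344, 364 and 339 in Young Sham and 941, 1577, 917 and 511 in Young Bleo (rise of 1.59 ± 0.31). Birc5, survivin, was at 87.8, 96.4, 135, 140.4 and 126 in Young Sham and 469.6, 935, 695 and 259 in Young Bleo (rise of 2.33 ± 0.44). Young Bleo 18 was the highest library for all 3 genes and Young Bleo 20 the lowest. Ube2c rose by 2.08 ± 0.46, Cdk1 by 1.86 ± 0.48, Aurkb by 2.31 ± 0.47, Plk1 by 2.02 ± 0.50 and Prc1 by 1.76 ± 0.36. The levels remained low, and Ccnb2 reached 4.02 ± 1.78 FPKM (SD, n = 4) in Young Bleo from 0.627 ± 0.206 (SD, n = 5). Genes of S phase were called higher in 3 of 24 members, with a median of 0.52, and in 6 without Young Bleo 20 or with the 9 young libraries fitted alone. The 3 were Tk1 (1.89 ± 0.48), Cdc45 (1.20 ± 0.35) and Tyms (0.88 ± 0.21), while Pcna (0.12 ± 0.18) and Mcm2 (0.25 ± 0.25) were not called. Dividing macrophages use the same genes, and macrophage markers rose in the same libraries.

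The promoters of these mitotic genes share sequence, which is a property of the list and not a result of these libraries. Genes of G2 and M phase are commonly regulated through CCAAT boxes, which bind the factor NF-Y, and through a cell cycle homology region with the core TTTGAA. In the RefSeq promoter table (GRCm38.p6, 250 bases before to 50 after each start), CCAAT occurred on either strand in 18 of 20 promoters (90%) of 19 matched G2 and M genes, against 37.4% of all 32851 promoters and 36.9% of those of genes tested. TTTGAA occurred in 15 of the 20 (75%), against 17.9% and 12.3%. Promoters of all genes called higher held CCAAT in 34.2% and TTTGAA in 13.4%, and those of genes called lower in 36.5% and 12.9%. The 150 bases before the start of 4 members, shown because they carry both motifs close together, are printed 5′ to 3′ on the strand of the gene, with CCAAT and TTTGAA or their reverse complements ATTGG and TTCAAA in capitals. They lie at chr10:69352913-69353062 (minus strand), chr11:99024190-99024339 (minus), chr4:118437344-118437493 (minus) and chr2:164769779-164769928 (plus).
Cdk1: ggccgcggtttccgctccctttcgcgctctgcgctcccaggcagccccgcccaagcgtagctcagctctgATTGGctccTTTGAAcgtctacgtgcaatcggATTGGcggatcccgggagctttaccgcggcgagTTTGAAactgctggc
Top2a: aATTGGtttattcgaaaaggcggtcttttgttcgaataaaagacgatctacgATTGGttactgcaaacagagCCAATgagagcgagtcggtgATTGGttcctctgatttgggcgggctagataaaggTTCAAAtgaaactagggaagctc
Cdc20: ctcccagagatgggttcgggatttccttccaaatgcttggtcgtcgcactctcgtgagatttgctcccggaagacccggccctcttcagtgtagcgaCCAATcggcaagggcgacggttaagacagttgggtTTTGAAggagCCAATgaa
Ube2c: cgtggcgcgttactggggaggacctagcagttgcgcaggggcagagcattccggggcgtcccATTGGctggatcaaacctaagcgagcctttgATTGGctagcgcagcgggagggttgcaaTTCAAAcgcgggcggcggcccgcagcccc
These matches are a description of the letters in this window and not of factor binding. Top2a, a DNA topoisomerase whose promoter holds 4 CCAAT matches, was at 211, 133, 141, 125 and 131 in Young Sham and 385, 792, 447 and 336 in Young Bleo. Its counts rose by 1.72 ± 0.41 (adjusted p = 0.000538).

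Inhibitors of the cell cycle and targets of p53 changed in fewer members. Of 21, 6 were called lower, 3 by both tools, and 1 higher, with a median of -0.38. Without Young Bleo 17 the lower count was 2, and without Young Bleo 20 it was 9. Cdkn2b, which encodes the inhibitor p15, was at 13427, 13217, 12784, 13351 and 13254 in Young Sham and 779.7, 849, 1226 and 5066 in Young Bleo. It was nearly equal in the 5 sham libraries and fell by 2.74 ± 0.71 (adjusted p = 0.00198), with -3.79 without Young Bleo 20. Cdkn1a, the p53 target that encodes p21, was at 25531, 27067, 24277, 37923 and 31192 in Young Sham and 7777, 13181, 13109 and 21588 in Young Bleo (log2 fold change -1.07 ± 0.31). Mdm2 (-0.36 ± 0.22), Bax (-0.14 ± 0.20) and Cdkn1b (-0.35 ± 0.22) were not called. The 1 member that rose was Rgcc, given above.

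Genes of glycolysis and the hypoxia response rose. Of 22 members, 13 were called higher, 12 by both tools, with a median of 1.29 and 21 of 22 above 0. Without Young Bleo 17 the count was 10 higher, with a median of 1.15, and without Young Bleo 20 it was 15 higher and 1 lower. Ldha, lactate dehydrogenase A, was at 10830, 11563, 9038, 11534 and 10527 in Young Sham and 61787, 50894, 50095 and 23059 in Young Bleo and rose by 2.12 ± 0.42 (adjusted p = 2.63e-05). Bnip3, a mitochondrial protein of the hypoxia response, was at 1983, 1502, 1655, 2588 and 2128 in Young Sham and 27613, 17346, 16915 and 5562 in Young Bleo and rose by 3.10 ± 0.62 (adjusted p = 2.66e-05). Ankrd37, another gene that hypoxia induces, was at 581, 479, 541, 517 and 579 in Young Sham and 21308, 15874, 8025 and 3082 in Young Bleo and rose by 4.48 ± 0.82. In all 3 genes Young Bleo 17 was the highest library and Young Bleo 20 the lowest. The glucose transporter Slc2a1 rose by 2.25 ± 0.52, the lactate exporter Slc16a3 by 2.72 ± 0.70, Pfkl by 2.04 ± 0.38, Tpi1 by 1.39 ± 0.38 and Eno1 by 1.19 ± 0.27. Vegfa (0.40 ± 0.23) and Pfkfb3 (0.17 ± 0.21) were not called. Of 20 genes of the respiratory chain, DESeq2 and edgeR both called 0, with 1 higher at an unadjusted p under 0.05 by either tool and a median of 0.11. The macrophage list followed the same order among the injured libraries, and its part in the rise was not tested.

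Hypoxia-inducible factors bind DNA at sites with the core ACGTG. This motif was looked up after the values of these genes had been seen. It occurred on either strand in 18 of 30 promoters (60%) of 21 matched members of the list, against 19.6% of all promoters, 23.9% of those of genes tested and 19.9% of the promoters of genes called higher. The 150 bases before the first listed start of Ldha (chr7:46845654-46845803, plus strand) and of Bnip3 (chr7:138909507-138909656, minus) are printed on the strand of the gene with ACGTG or its reverse complement CACGT in capitals, because both are abundant genes that rose. The 150 bases before another listed start of Ldha (chr7:46846932-46847081) held 0 matches and are not printed.
Ldha: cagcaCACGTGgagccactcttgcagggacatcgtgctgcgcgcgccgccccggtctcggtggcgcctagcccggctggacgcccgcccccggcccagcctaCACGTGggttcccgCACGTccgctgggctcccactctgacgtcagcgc
Bnip3: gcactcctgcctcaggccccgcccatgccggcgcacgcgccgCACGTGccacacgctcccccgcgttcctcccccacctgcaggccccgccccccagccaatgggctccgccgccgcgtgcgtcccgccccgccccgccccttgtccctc
The CACGTG runs in both stretches match on both strands, and as above a match does not say that a factor binds there.

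Lipid genes rose in 10 of 19 members and fell in 2, with a median of 1.03. Fabp5, a fatty acid binding protein, was at 973, 796, 777, 948 and 958 in Young Sham and 9263, 15289, 13916 and 4623 in Young Bleo and rose by 3.60 ± 0.51 (adjusted p = 1.29e-09). Fabp4, a target of Pparg, rose by 1.16 ± 0.33, the fatty acid transporter Slc27a1 by 1.67 ± 0.41 and the cholesterol exporter Abca1 by 1.41 ± 0.41. The members Cd36 (-0.30 ± 0.15), Plin2 (0.08 ± 0.16) and Scarb1 (0.15 ± 0.17) were not called. Fabp5, Lpl and Abca1 are also expressed by macrophages.

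Genes of class II antigen presentation rose. Of 11 MHC class II genes, 8 were called higher, 7 by both tools, with a median of 1.20. Without Young Bleo 17 the count was 4, without Young Bleo 18 it was 5, with 1 lower, and without Young Bleo 20 it was 9. Ciita, the transcriptional activator of the class II genes, was at 803, 516, 1191, 738 and 544 in Young Sham and 3135, 3017, 2590 and 2544 in Young Bleo, with no overlap and little difference among the injured libraries. It rose by 1.90 ± 0.45 (adjusted p = 0.000619). H2-DMb1, a chaperone of peptide loading, was at 3404, 1681, 2809, 4001 and 3238 in Young Sham and 8131, 8663, 6736 and 4222 in Young Bleo (rise of 1.20 ± 0.32), where Young Sham 22 was the lowest sham library. H2-Eb1 (1.06 ± 0.43) was not called. Of 15 MHC class I genes, 2 were called lower and 0 higher by DESeq2, 1 and 0 by edgeR, and 0 were higher at an unadjusted p under 0.05 by either tool. Their median was -0.40 with 0 of 15 above 0, and 6 were called lower with the 9 young libraries fitted alone. Ctss, the protease that processes the invariant chain, was at 311, 169.7, 217, 377 and 124 in Young Sham and 7206, 6370, 4547 and 1169 in Young Bleo, in the order of the macrophage markers, which it also belongs with. Ciita and the class II genes are made by capillary ECs and by macrophages alike, and the macrophage markers rose.

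Complement genes were called higher in 10 of 18 members by both tools and in 5 by limma voom. Of these, C1qb (5.30 ± 1.01), C1qc (5.35 ± 1.38), C1qa (4.93 ± 1.35), C5ar1 (3.04 ± 0.85) and C3ar1 (4.63 ± 1.43) are genes of macrophages, and the macrophage list holds the 3 C1q genes too. C3ar1 was not called without Young Bleo 17 (log2 fold change 3.49) and stood at 6.35 without Young Sham 25. C1qa stood at 4.29 without Young Bleo 18, and without Young Sham 24 the values were 5.61 for C1qa, 5.94 for C1qb and 6.34 for C1qc. Among the other members, Cfb, C3 and C4b did not follow the order of the macrophage markers. Cfb, factor B of the alternative pathway, was at 481, 644, 533, 369.6 and 579 in Young Sham and 2056, 1524, 1069 and 1647 in Young Bleo (rise of 1.59 ± 0.30, adjusted p = 9.99e-06). C3 was at 1075, 1096, 1624, 524 and 588 in Young Sham and 3780, 1747, 2409 and 3852 in Young Bleo (rise of 1.59 ± 0.34), and C4b at 599.5, 394, 445, 110.0 and 467 and 1358, 1201, 834 and 2122 (rise of 1.77 ± 0.42). For C3 and C4b, Young Bleo 20 was the highest library. Mesothelial cells make C3 too, and their markers rose. Of 26 interferon-stimulated genes, 6 were called higher, against 7.57% of all genes. They include Oas2, at 51, 202, 185, 42.1 and 129 in Young Sham and 947, 1800, 978 and 751 in Young Bleo (rise of 3.20 ± 0.47), Rsad2 (2.15 ± 0.48), Oas1a (1.17 ± 0.26) and Ifit1 (1.03 ± 0.21). Irf7 (0.36 ± 0.27) and Isg15 (0.51 ± 0.22) were not called.

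Leukocyte adhesion genes were called higher in 3 and lower in 3 of 13. Icam1, which binds leukocyte integrins, was at 44655, 46180, 45236, 44919 and 50733 in Young Sham and 9216, 9003, 8592 and 26832 in Young Bleo, where 3 libraries lay close together and Young Bleo 20 was higher. It fell by 1.79 ± 0.40 (adjusted p = 0.000205), with Icam2 (-0.82 ± 0.16) and Cd47 (-1.32 ± 0.17). Vcam1 (0.08 ± 0.23) and Sele (-0.55 ± 0.51) were not called. Of 20 chemokines and cytokines tested, 7 were called higher, 6 by both tools and 3 by limma voom, and 3 lower. The membrane-bound chemokines Cx3cl1 (-1.47 ± 0.37) and Cxcl16 (-1.46 ± 0.18) fell, as did the death ligand Tnfsf10 (-0.97 ± 0.24). Ccl8 (4.42 ± 0.99) and Ccl9 (6.83 ± 1.46) rose from counts near 0 in Young Sham, and both are chemokines of macrophages. The fitted value of Ccl9 was 8.39 without Young Sham 24.

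Clock, immediate early and ribosomal protein genes moved in part. Of 17 clock genes, 8 were called higher, 6 by both tools, and without Young Bleo 17 the count was 4. Dbp, an output gene of the clock, was at 620.3, 474, 451, 421 and 786 in Young Sham and 9320, 2473, 1558 and 1770 in Young Bleo and rose by 2.78 ± 0.46 (adjusted p = 3.1e-07), or by 1.81 without Young Bleo 17. Nr1d1 was at 2248, 3429, 1958, 1879 and 3404 in Young Sham and 10825, 7005, 5231 and 6011 in Young Bleo (rise of 1.49 ± 0.29), and Bhlhe40 rose by 2.17 ± 0.50. For Dbp and Nr1d1 Young Bleo 17 was the highest library, and the time of day of collection is not given in the sources used here. The core genes Arntl (0.07 ± 0.26), Clock (0.36 ± 0.21), Per1 (-0.54 ± 0.51) and Per2 (-0.22 ± 0.60) were not called. Among 22 immediate early and heat shock genes, 5 were called higher and 1 lower. Fos was at 5459, 3419, 5399, 2248 and 3495 in Young Sham and 12015, 14258, 13878 and 19176 in Young Bleo (rise of 1.89 ± 0.28, adjusted p = 3.3e-09), and Fosb, Junb and Ier3 rose by 1.23 ± 0.25, 0.77 ± 0.19 and 1.66 ± 0.40, whereas Egr1 (0.29 ± 0.39) and Atf3 (-0.12 ± 0.36) were not called. Ribosomal protein genes were called higher in 11 of 24, 6 by both tools. Their count ran from 3 without Young Bleo 19 to 18 without Young Bleo 20, and it was 4 without Young Bleo 17, 5 without Young Bleo 18, 5 without Young Sham 22 and 17 with the 9 young libraries fitted alone. Many of these genes have processed pseudogenes that can take or share their reads. Rps6 was at 2941, 2473, 3217, 3307 and 2957 in Young Sham and 7311, 7269, 7566 and 3650 in Young Bleo. In Young Bleo 20 this gene lay near the sham libraries. Of 21 genes of the unfolded protein response, 1 was called higher, Trib3 (1.40 ± 0.29). Of 21 antioxidant genes, 4 were called higher, 1 by both tools, and 2 lower by both tools, with Gpx3 (-1.70 ± 0.30) and Gstm1 (-0.75 ± 0.20) falling. The higher count was 1 without Young Bleo 17 or 18 or Young Sham 21 or 22 and 2 without Young Bleo 19 or Young Sham 25, and the lower count was 4 without Young Bleo 20 or with the 9 young libraries fitted alone.

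**Figure D3:**
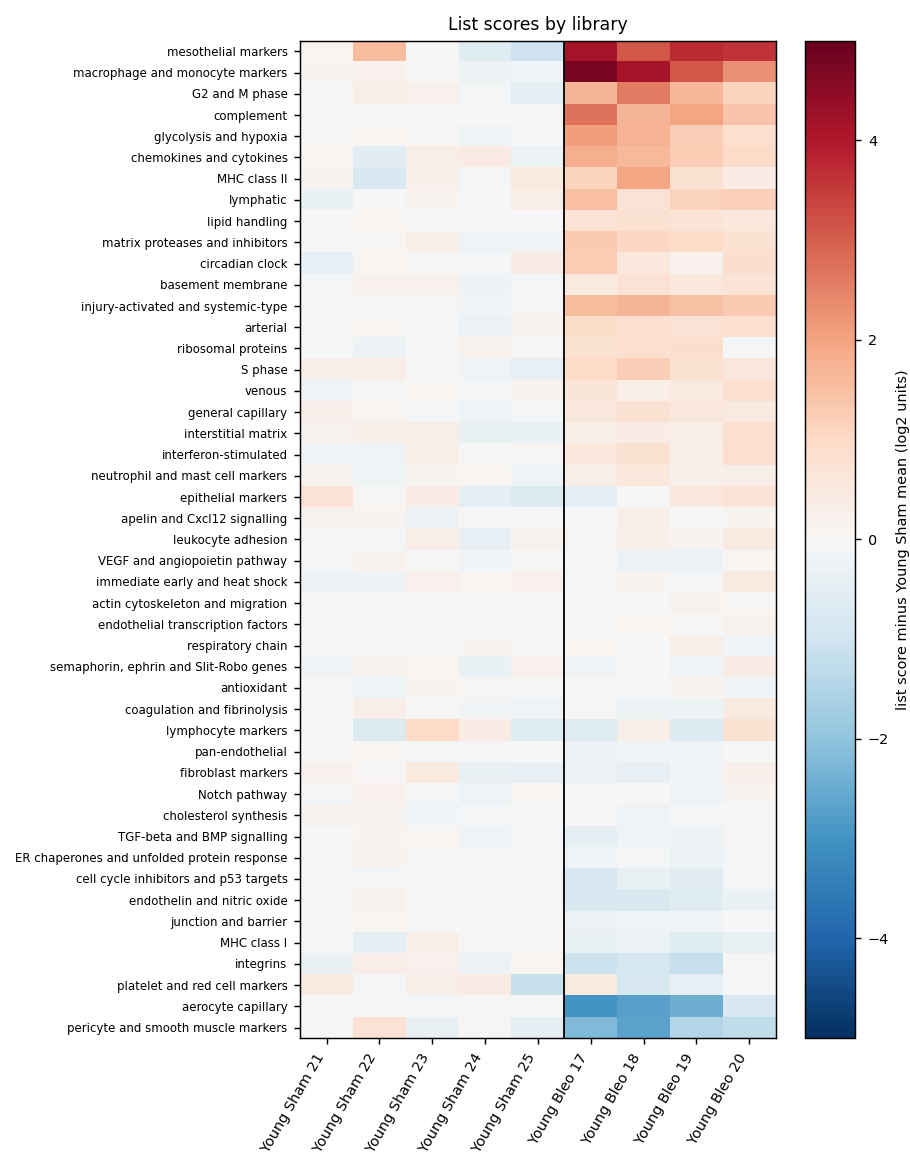
Score of each gene list, the mean of log2(normalized count + 1) over its members, minus the Young Sham mean, in the 5 Young Sham and 4 Young Bleo libraries (colour scale from -5 to 5 log2 units). The aerocyte score was 12.58, 12.84, 13.11 and 14.74 in Young Bleo 17 to 20 against 15.45 to 15.61 in Young Sham, while the macrophage score ran from 9.38 down to 6.93 across the same injured libraries.

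The response at 2 months was set against that at 18 months by the difference of the 2 responses, each age against its own sham libraries. DESeq2 called 77 genes of 20380 tested (0.378%) and edgeR called 1 of 18324 (0.00546%), so most differences rest on DESeq2 alone. The aerocyte list had a median log2 fold change of -1.90 at 2 months and -1.04 at 18 months, with 0 members called for the difference by either tool (2 at an unadjusted p under 0.05 by DESeq2 and 1 by edgeR). The G2 and M list had medians of 1.74 and 1.45, again with 0 called (1 and 1 at an unadjusted p under 0.05). The glycolysis and hypoxia list had medians of 1.29 and 0.79, with 1 called, Ndrg1. Mesothelial markers had medians of 3.68 at 2 months and -1.06 at 18 months, with 4 of 10 called for the difference by DESeq2 and 0 by edgeR (8 and 8 at an unadjusted p under 0.05). Msln, mesothelin, was at 27.4, 119, 53.3, 24.6 and 0 in Young Sham and 2189, 607, 836 and 869 in Young Bleo, and at 342, 1068 and 1448 in the 3 Aged Sham and 782, 35.4, 525 and 529 in the 4 Aged Bleo libraries. The difference, aged minus young, was -5.67 ± 1.47 (log2, SE; DESeq2 adjusted p = 0.0381). Its rise at 2 months was 4.65 ± 0.97, or 5.44 without Young Sham 22.

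Genes whose young response differed from the aged one included matrix, complement and receptor genes. Fn1 rose by 2.56 ± 0.32 at 2 months and had a log2 fold change of 0.52 ± 0.36 at 18 months (difference -2.03 ± 0.48, DESeq2 adjusted p = 0.0153). It was at 1383, 1692 and 939 in Aged Sham and 3430, 2227, 1166 and 866 in Aged Bleo. C2 was at 152, 110.4, 111, 83.1 and 82.1 in Young Sham, 749, 244, 518 and 458 in Young Bleo, 276, 543 and 638 in Aged Sham and 245, 228, 484 and 295 in Aged Bleo, with a difference of -2.83 ± 0.52 (adjusted p = 0.00024). C3 and the complement inhibitor Cd59a differed by -2.20 ± 0.52 and -1.92 ± 0.37. Itga4, an integrin subunit, was at 144, 238, 228, 306 and 205 in Young Sham, 13, 20.8, 14.3 and 54.9 in Young Bleo, 65.9, 21.9 and 25.6 in Aged Sham and 21.2, 32.4, 48.6 and 43.8 in Aged Bleo (difference 3.10 ± 0.71, adjusted p = 0.012). Its aged groups overlapped and its young groups did not, and the log2 fold change at 2 months was -3.11 ± 0.46, or -3.81 without Young Bleo 20. Agtr1a differed by 3.94 ± 0.88, Fos by -1.65 ± 0.42, Tgfb2 by -1.66 ± 0.43 and Ndrg1 by -1.61 ± 0.41. Kit differed by 1.47 ± 0.34, with -0.09 ± 0.22 at 2 months and 1.38 ± 0.25 at 18 months. Of these 10 genes and Msln, edgeR called 0 for the difference, with adjusted p of 0.126 to 0.352 in edgeR. The difference was not called for Fn1 without Young Bleo 19 (-1.97) or for C3 without Young Bleo 17 (-2.06). It was not called for Msln (-5.88 to -5.13), Fos (-1.69 to -1.60), Tgfb2 (-1.69 to -1.45) and Ndrg1 (-1.61 to -1.51) without any 1 of 4 or more single libraries each. C2, Cd59a, Itga4, Agtr1a and Kit kept the call without each library of the 2-month mice in turn.

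**Figure D4:**
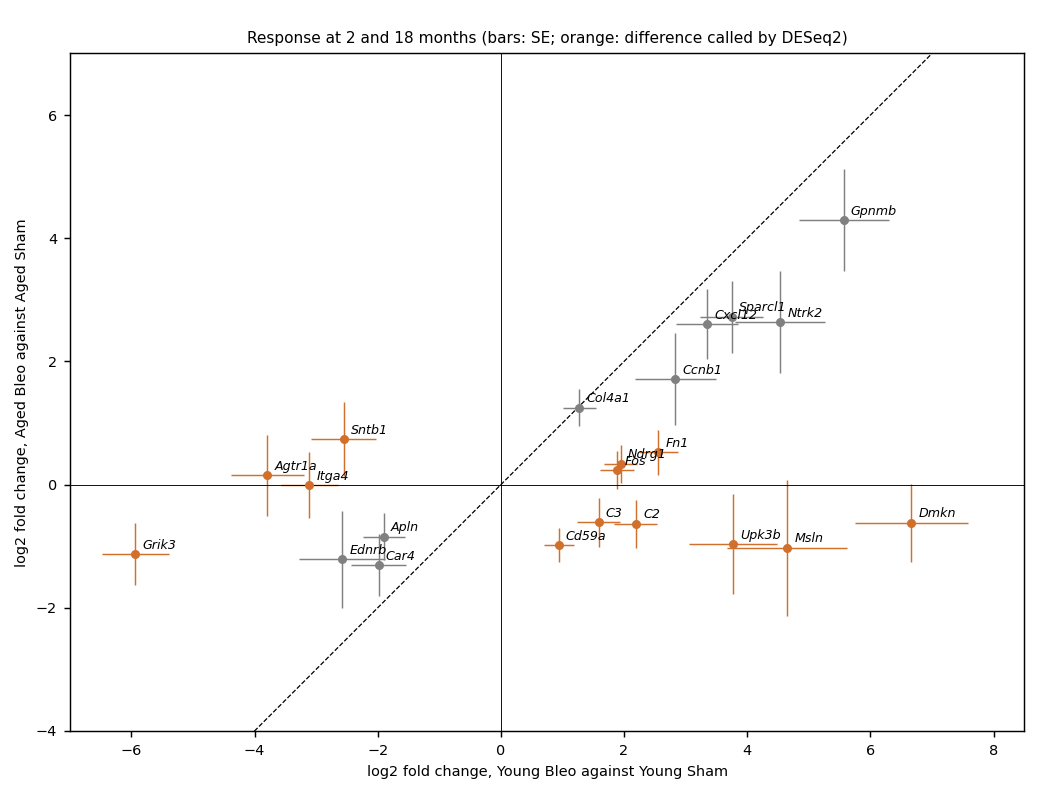
Log2 fold change of 22 genes in Young Bleo against Young Sham (horizontal axis) and in Aged Bleo against Aged Sham (vertical axis), with SE bars, equal scales and a dashed line of equal response. Orange marks genes whose difference DESeq2 called. Fn1, C2, C3 and the mesothelial genes lie to the right and far below the line, Itga4 and Agtr1a to the left and above it, and Cxcl12, Sparcl1 and Gpnmb rose at both ages.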

How the data were processed

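Lung ECs were sorted into lysis buffer and sequenced. The labels name SMART-Seq v4 cDNA with Nextera libraries, whereas the study's methods name a poly(A)-selecting kit. Per the labels, the authors aligned reads with STAR 2.5.2b to mm10 and deposited featureCounts counts per gene, with FPKM values, which the authors scaled to depth and gene length, and gene lengths in 1 table. The strand setting and the treatment of reads that match several places are not given in the sources used here, so overlapping genes, antisense genes and near-identical copies are uncertain.

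Counts of all 43346 genes in all 16 libraries were fitted with DESeq2 1.42.0 (Wald test, 1 mean per group, Benjamini-Hochberg adjustment) in R 4.3.3, which shares 1 estimate of spread over the 4 groups. The call thresholds were 0.05 for the adjusted p and 0.5 for the absolute log2 fold change. Adjusted p-values in the text are from DESeq2 unless edgeR 4.0.16 (quasi-likelihood, TMM) is named, and "both tools" means these. Normalized counts are counts divided by DESeq2's size factors. The alternatives were edgeR, TMM factors, edgeR's filter, limma 3.58.1 (voom, and trend on log2(FPKM + 0.1)), the 9 libraries alone, and leaving out each of the 9.

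The 47 lists (781 genes, 1 of them not matched) were compiled from known functions. Members and lists were chosen with earlier results of these data known. Genes were named by rule: the 12 highest and 12 lowest fold changes called by both tools whose mean normalized count reached 50 and whose groups did not overlap, the 10 each way whose mean reached 2000, and up to 4 called and 2 not called members per list. Further members were named for their role after their values were seen. A few list members are not reported here, and not every gene the rules give is named. FPKM served only to compare genes per length. Promoter sequences are from RefSeq (GRCm38.p6).

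In counts simulated for Young Bleo against Young Sham with 200 of 43346 genes changed, DESeq2 recovered 149 with 40 false calls, and edgeR 134 with 2. With no gene changed DESeq2 made 17 calls and edgeR 0. For the difference of the responses DESeq2 recovered 105 with 44 false calls and edgeR 75 with 1, and with no gene changed they made 16 and 0 calls.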

Additional observations from a re-analysis of the deposited data

Results flagged for a closer look

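Of 580 groups of values (each named gene and list in the 4 Young Bleo or the 5 Young Sham libraries), 42 had 1 library far from the others by Dixon's test, 20 in Young Sham and 22 in Young Bleo, where chance gives about 1 in 20. Young Bleo 20 was that library in 16. Values are log2(normalized count + 1), with the median of the group after each. In Young Bleo 20 the values apart were those of AF251705 5.784 (8.575), Clrn1 4.289 (7.530), Edn1 12.895 (13.830), Ednrb 14.525 (11.828), Fosb 9.547 (8.819), Icam1 14.712 (13.153), Kdr 16.103 (14.469), Nrp1 15.786 (14.996), Pparg 9.930 (10.745), Prx 15.110 (13.165), Rps6 11.834 (12.832), Sirpa 13.575 (11.663), Slc16a9 12.464 (9.952) and Timp1 8.222 (9.632). In Young Bleo 17 the value apart was that of Cav2 13.904 (14.228). In Young Bleo 18 the values apart were those of Ackr1 10.066 (10.538) and Plvap 16.738 (16.289). In Young Bleo 19 the values apart were those of Fam162b 0.000 (3.765), Nrarp 9.777 (10.368) and Ramp2 17.009 (16.603). In Young Sham 21 the values apart were those of Bhlhe40 9.279 (10.171), Kitl 14.576 (14.828) and Top2a 7.725 (7.071). In Young Sham 22 the values apart were those of Hal 3.740 (0.000) and S1pr3 11.291 (9.656). In Young Sham 23 the values apart were those of Cdkn1b 9.926 (9.352), Mmp12 2.838 (0.000), Plin2 12.182 (12.457), Rsad2 7.715 (6.794) and Slc27a1 7.875 (7.115). In Young Sham 24 the values apart were those of Adora1 5.026 (6.813), C4b 6.794 (8.801), Pecam1 15.906 (16.251) and Wfdc17 3.373 (0.000). In Young Sham 25 the values apart were those of C5ar1 0.000 (3.940), Icam1 15.631 (15.465), Lyz2 11.412 (12.105), Trib3 9.804 (9.142) and Unc5cl 6.682 (8.052). The mean score of the glycolysis and hypoxia list was 10.119 in Young Sham 24 (median 10.373). The mean score of the interstitial matrix list was 10.774 in Young Bleo 20 (median 10.330). The mean score of the ribosomal proteins list was 12.215 in Young Bleo 20 (median 13.051).

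The response to bleomycin differed between the ages by DESeq2's test of the difference, aged minus young on the log2 scale with the adjusted p after each value, for Agtr1a 3.941 (0.0107), C2 -2.829 (0.00024), C3 -2.203 (0.0152), Cd59a -1.923 (0.000467), Fn1 -2.033 (0.0153), Fos -1.654 (0.0324), Itga4 3.096 (0.012), Kit 1.472 (0.012), Msln -5.673 (0.0381), Ndrg1 -1.610 (0.0324) and Tgfb2 -1.656 (0.0338). In Agtr1a, Itga4 and Kit the aged value was the higher, and in the other 8 the young one. None of the 11 was called by edgeR, whose 1 call was another gene, while 1282 genes had an unadjusted p under 0.05 in edgeR. The cause of these differences was not tested.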

How the results depend on the processing

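DESeq2 called 2578 genes in Young Bleo against Young Sham, and every other setting stayed within 1.5 times of this count, from 1736 with limma voom to 3339 without Young Bleo 20. Leaving out 1 library at a time gave 1807 to 3339. The higher calls numbered 1402, and 915 with limma voom, with 992 to 1647 when 1 library was left out. The lower calls numbered 1176, and 750 with edgeR, with 815 to 1692 when 1 library was left out. The difference of the responses was called for 77 genes by DESeq2, for 1 by edgeR, for 1 by limma voom and for 0 by limma-trend on log2(FPKM + 0.1), where 1382 genes had an unadjusted p under 0.05. Leaving out 1 library gave 37 to 226 genes, the fewest without Young Bleo 19 and the most without Young Bleo 20, which shared 72 of the 77. The cause of these shifts was not tested. Of the 191 called genes named, 170 were called in every setting, 20 lost the call with limma voom and 2 with edgeR, and no direction reversed. With limma voom the higher calls numbered 4 of 17 clock, 5 of 24 ribosomal protein, 3 of 18 coagulation, 1 of 13 leukocyte adhesion and 1 of 22 antioxidant genes. The median over all genes was 0.00 to 0.03 (log2) in every setting. No paired analysis was possible because the library numbers do not repeat across the groups. Sequencing depth limits the genes near 0 counts in Young Sham, whose fitted fold changes move with single libraries.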

Other observations

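Among genes whose mean normalized count reached 50, several of the steepest rises belonged to no list. Wfdc17, a small secreted protein of activated macrophages, was at 0.944, 0, 0, 9.36 and 0 in Young Sham and 949.5, 1175, 411 and 68.8 in Young Bleo (log2 fold change 8.30 ± 1.55, DESeq2 adjusted p = 6.3e-06). AF251705, which encodes a myeloid receptor, was at 16.1, 13.2, 0, 0 and 0 and 418, 385, 376 and 54.1. AA467197 was at 11.3, 3.3, 0, 10.5 and 0 and 442, 340, 176 and 20.1. Hal, the enzyme that degrades histidine, was at 0, 12.4, 0, 0 and 0 in Young Sham and 238, 161, 44.1 and 47.1 in Young Bleo. All 4 genes were near 0 in the sham libraries, and the naming rule took only genes whose groups did not overlap. The fitted log2 values were 10.91 for Wfdc17 without Young Sham 24, 6.49 for AF251705 without Young Sham 21 and 9.10 for Hal without Young Sham 22, from 8.30, 5.69 and 5.55. These genes moved with the macrophage markers, whose part in these values was not tested.

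Among the steepest falls, Adamts14, a protease that trims procollagen, was at 304, 433, 537, 395 and 324 in Young Sham and 1.73, 9.36, 13.2 and 69.5 in Young Bleo (log2 fold change -4.08 ± 0.89, DESeq2 adjusted p = 0.000167). Fam162b was at 218, 262, 152, 292 and 160.3 and 13.9, 11.4, 0 and 19.3, Clstn2, a calsyntenin, at 132, 261, 125, 88.9 and 139 and 13, 0, 5.51 and 20.1, and Unc5cl at 299, 264, 260.4, 326 and 102 and 28.6, 5.2, 12.1 and 58. The naming rule took only genes whose groups did not overlap, so in all 4 genes every injured library was below every sham library. Without Young Bleo 20 the values were -5.63 for Adamts14, -4.58 for Clstn2 and -4.02 for Unc5cl, from -4.08, -3.94 and -3.26. Unc5cl had a log2 fold change of -3.26 ± 0.75 at 2 months and -0.08 ± 0.84 at 18 months, a difference that DESeq2 did not call (adjusted p = 0.284).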
